A study of Caenorhabditis elegans with 6 samples.

Results

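The lysosomal acid lipases of *Caenorhabditis elegans* are the 8 genes lipl-1 to lipl-8. They were taken by WormBase symbol from a table of 46748 features, and all 8 had a row. The study sequenced RNA of whole N2 hermaphrodites, 5 days of age, as 6 libraries: 3 carry the perturbation label Y6B3B.9, which is the name of a gene, and 3 carry L4440, the plasmid commonly used as an empty control vector in feeding RNA interference. N2 is the standard laboratory strain, and no other allele or agent is named for either group. The labels say neither how the perturbation was given nor whether the libraries came from separate cultures, so the p-values measure the spread between these samples, which may be technical. Higher, lower and rose always describe the libraries labelled Y6B3B.9 against those labelled L4440.

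Acid lipases free fatty acids from triglycerides and cholesteryl esters inside the lysosome. In the worm the best studied members act in the intestine, which is the main fat store. There they break down stored fat during fasting by lipophagy, under the activator HLH-30, related to mammalian TFEB, and the repressor MXL-3. Fatty acids released by LIPL-4 are known to be carried to the nucleus by the lipid-binding protein LBP-8, where they act through the nuclear receptors NHR-49 and NHR-80.

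The libraries held between 23103541 and 32012257 counted reads. Y6B3B.9 itself stood at 35.8 ± 3.58 CPM (SD, n = 3) in the libraries that carry its name and at 22.8 ± 0.387 CPM (SD, n = 3) in those labelled L4440, so it was higher, not lower, under its own label. The log2 change was 0.65 with an SE of 0.074 (edgeR, adjusted p = 1.26e-06). Adjusted p-values are those of the quasi-likelihood test of edgeR, with Benjamini-Hochberg adjustment over all tested genes. Markers of intestine, germline, muscle, neurons, epidermis, coelomocytes and pharynx all had reads, and all these tissues are parts of a whole worm. CPM are counts scaled to a common library size, here matched between libraries by TMM. Most of the transcriptome differed between the labels: 84.1% of 14265 tested genes were called at an adjusted p of 0.05, 46.4% higher and 37.7% lower. Over all tested genes the log2 change had a median of 0.22. It moved by -0.15 with the size factors of DESeq2, by 0.29 with library totals and by -0.29 when a trend of change with gene length was removed. The share of calls that were higher was 55.2%, against 49.7%, 67.4% and 43.9% under those settings. A small change therefore has no direction apart from the scaling.

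In the family, lipl-6, lipl-4, lipl-1 and lipl-2 rose under each setting in which they were tested. lipl-5, by far the most abundant member, passed the threshold by a small change, whose call was lost under several settings, the size factors of DESeq2 among them. lipl-7 and lipl-3 were not called, and lipl-8 had too few reads to be tested. In all, 5 of the 7 tested members were called higher and 0 lower, where 46.4% of all tested genes were called higher and 37.7% lower. The same 5 members had no overlap between the groups, with the Y6B3B.9 libraries on top, which held for 47.1% of all tested genes. The members lipl-6 and lipl-3 passed the filter on low counts through the Y6B3B.9 libraries: at its floor of 0.351 CPM stood 3 of those libraries for each, against 0 labelled L4440 for lipl-6 and 1 for lipl-3. A gene tested on that footing tends to be one that is higher in that group, so the counts over tested members are a description and support nothing about the family. Fewer cells of a type and less RNA per cell cannot be told apart in RNA of whole worms.

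**Figure D1:**
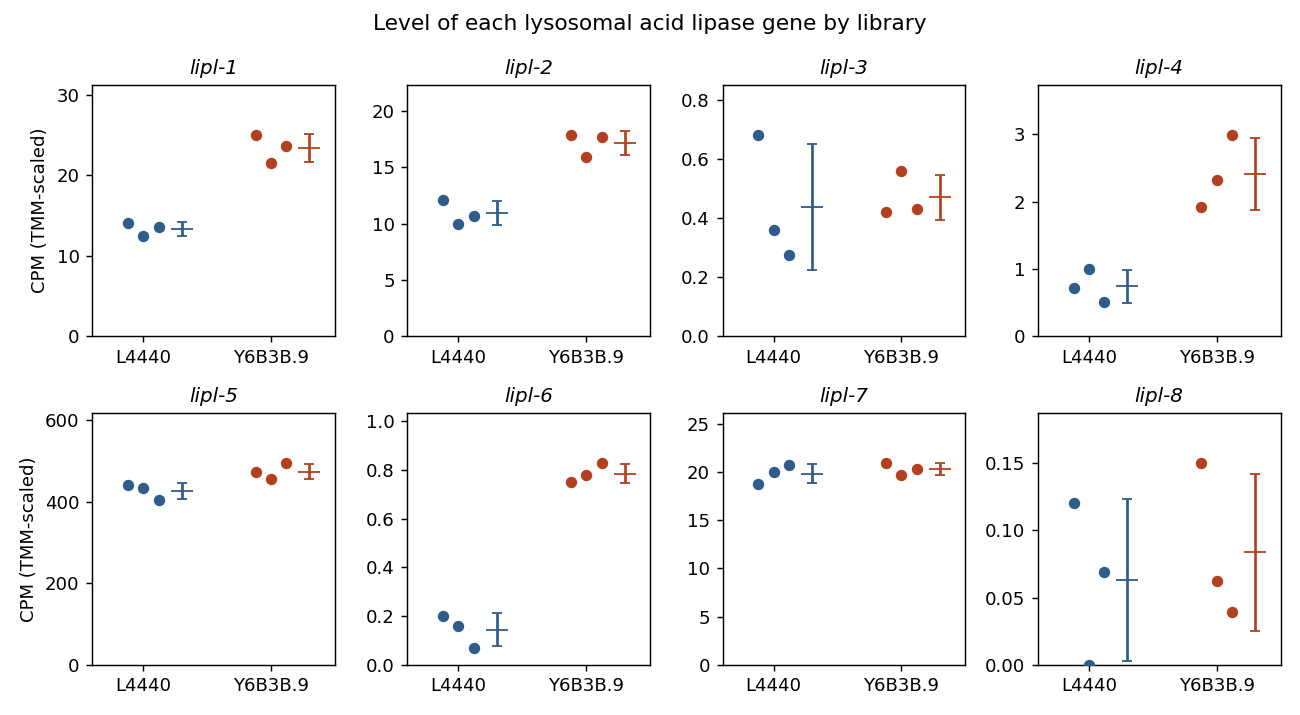
Level of each of the 8 members in CPM (vertical axis, from 0, a scale of its own in each panel), with a point for each library and a bar for the mean ± SD of 3 libraries. The points of the 2 labels lie apart for lipl-1, lipl-2, lipl-4, lipl-5 and lipl-6 and overlap for lipl-3, lipl-7 and lipl-8.

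All members but one lie on chromosome V in build WBcel235. lipl-1 (WBGene00010062) runs from 12919986 to 12921692 on the plus strand and lipl-2 (WBGene00009773) from 9791567 to 9793241, also on the plus strand, each with 5 exons. lipl-4 (WBGene00019376) spans 6550171 to 6552186 on the plus strand, and lipl-6 (WBGene00021963) spans 6931475 to 6934312 on the minus strand, with 10 exons in its transcript, the most in the family. lipl-5 (WBGene00022642) lies at 385746 to 387740 on the plus strand and lipl-3 (WBGene00020016) at 521595 to 524218 on the minus strand. lipl-8 (WBGene00013050) is at 14745684 to 14748708 on the minus strand. lipl-7 (WBGene00008510) alone is on chromosome IV, at 10239278 to 10241823 on the minus strand. The members are thus scattered rather than adjacent, and no member overlaps another.

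The annotation places few other genes over the members. The kit is named TruSeq and the strand setting of the counting is not given. Reads from an overlapping gene on either strand may therefore have looked alike. The end of lipl-3 overlaps srw-107 on the same strand, and lipl-4 overlaps a transfer RNA gene and the noncoding RNA K04A8.15 on the other strand. Each of these 3 neighbours was counted at 0 reads in all 6 libraries. Reads over shared exons may have been given to neither gene, since the counting options are not given, so these counts do not show whether the neighbours were transcribed. The other members overlap no annotated gene. Members of a family can share similar stretches, and how reads that match several genes were treated is not given in the sources used here.

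lipl-1 and lipl-2 were the moderately expressed members that rose. lipl-1 is known as a fasting-induced lipase under HLH-30 and MXL-3. It took 833, 694 and 601 reads under the label Y6B3B.9 and 353, 309 and 395 under L4440, or 25.0, 21.6 and 23.6 CPM against 14.1, 12.4 and 13.6 CPM. The groups did not overlap. The means were 23.4 ± 1.72 and 13.4 ± 0.876 CPM (SD, n = 3 each), a ratio of 1.75 (log2 change 0.81, SE 0.081, edgeR adjusted p = 3.10e-07).

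lipl-2, known with lipl-1 as a target of the transcription elongation factor TCER-1 in worms without a germline, had a like response. Its counts were 595, 513 and 450 against 302, 248 and 312, and its levels 17.8, 15.9 and 17.7 CPM against 12.1, 9.97 and 10.7 CPM. Again every library labelled Y6B3B.9 lay above every one labelled L4440. The means of 17.2 ± 1.06 and 10.9 ± 1.08 CPM (SD, n = 3 each) gave a ratio of 1.57 (log2 change 0.65, SE 0.090, edgeR adjusted p = 9.56e-06). The change of lipl-1 exceeded that of 68.9% of tested genes and the change of lipl-2 that of 63.1%, so changes of this size were common in these libraries.

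lipl-4 rose more steeply from a low level. It is the member known for extending life when expressed in excess, and for its induction in long-lived worms that lack a germline. It had 64, 75 and 76 reads under the label Y6B3B.9 and 18, 25 and 15 under L4440. In CPM this was 1.92, 2.33 and 2.99 against 0.721, 1.01 and 0.515. The lowest library labelled Y6B3B.9 was well above the highest labelled L4440. The mean went from 0.747 ± 0.246 to 2.41 ± 0.540 CPM (SD, n = 3 each), a ratio of 3.23 (log2 change 1.69, SE 0.25, edgeR adjusted p = 1.97e-05). This change exceeded that of 92.7% of tested genes. On the summed reads, 215 against 58, the ratio had a 95% exact counting interval of 2.398 to 4.38, which covers counting error only.

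lipl-6 had the largest change of the family and one of its lowest levels. Its reads numbered 25, 25 and 21 under the label Y6B3B.9 and 5, 4 and 2 under L4440. The levels of 0.750, 0.777 and 0.826 CPM were close to each other, while 0.200, 0.161 and 0.0687 CPM under L4440 rest on few reads. The groups did not overlap. The fitted log2 change was 2.45 (SE 0.36, edgeR adjusted p = 1.86e-05), in a test that lipl-6 entered only through its Y6B3B.9 libraries. With a filter of 1 CPM in 3 libraries it was not tested. The summed reads, 71 against 11, gave a ratio of 5.60 with a 95% exact counting interval of 2.95 to 11.7. Without L4440 replicate 3, the library with 2 reads, the change of lipl-6 was 2.08.

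lipl-5 supplied most of the family's transcripts. It is another lipase known to be induced by fasting, and worms that lack it are known to live longer. It took 15766, 14663 and 12555 reads under the label Y6B3B.9 and 11018, 10765 and 11784 under L4440. In CPM the values were 473, 456 and 494 against 441, 433 and 405. The lowest value under Y6B3B.9 exceeded the highest under L4440 by a narrow margin. The means were 474.1 ± 19.14 and 426.2 ± 19 CPM (SD, n = 3 each), a ratio of 1.11 (log2 change 0.15, SE 0.053, edgeR adjusted p = 0.0144). Over its alternatives the adjusted p ran from 2.76e-06 to 0.967. This change is smaller than the 0.22 median of all tested genes. It was 0.0027 with the size factors of DESeq2 and -0.015 with the length trend removed, and it was not called without L4440 replicate 2 (adjusted p = 0.0667) or L4440 replicate 3 (adjusted p = 0.1301).

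lipl-7 had nearly equal levels under both labels. Its counts were 697, 635 and 517 against 469, 497 and 603, and its levels 20.9, 19.7 and 20.3 CPM against 18.8, 19.97 and 20.7 CPM. The groups overlapped over most of their range. The log2 change was 0.035 (SE 0.070, edgeR adjusted p = 0.643), with a 95% interval of -0.11 to 0.18 under TMM scaling. It was -0.25 and called lower with the length trend removed (adjusted p = 0.00406) and 0.33 and called higher with library totals (adjusted p = 0.000586). With L4440 replicate 1 left out it was -0.019.

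lipl-3, known like lipl-1 as a fasting-induced lipase under HLH-30 and MXL-3, was close to silent in both groups. It had 14, 18 and 11 reads under the label Y6B3B.9 and 17, 9 and 8 under L4440, or 0.420, 0.559 and 0.433 CPM against 0.681, 0.362 and 0.275 CPM. The highest and the lowest value both came from L4440 libraries. The log2 change was 0.13 (SE 0.35, edgeR adjusted p = 0.738), and its 95% interval of -0.63 to 0.89 leaves room for a rise like that of lipl-1. lipl-3 was at 0.56 without L4440 replicate 1 and at -0.15 without L4440 replicate 3. lipl-8 had 5, 2 and 1 reads against 3, 0 and 2, too few to pass the filter on low counts. Its summed reads, 8 against 5, gave a ratio of 1.39 with a 95% exact counting interval of 0.401 to 5.397. The sign of any difference was thus not resolved at this depth.

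**Figure D2:**
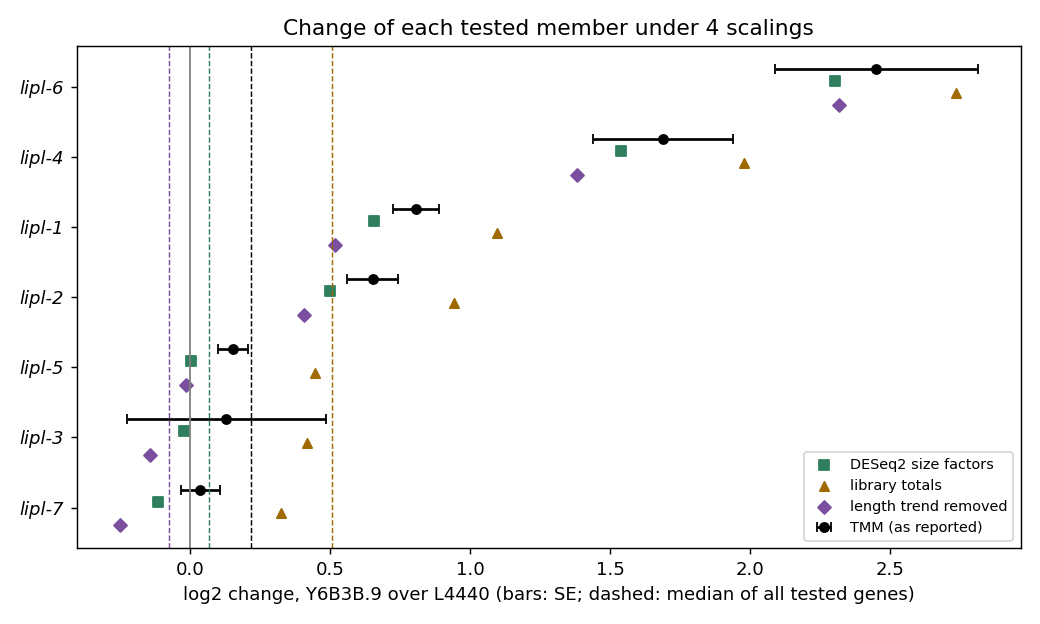
The log2 change of the 7 tested members (horizontal axis, Y6B3B.9 over L4440) with TMM scaling (circles, bars of 1 SE), size factors of DESeq2 (squares), library totals (triangles) and with the length trend removed (diamonds). Dashed lines mark the median of all tested genes in the same colour, at 0.22, 0.066, 0.51 and -0.076. lipl-6, lipl-4, lipl-1 and lipl-2 stay to the right of 0 and of the matching median, whereas lipl-5, lipl-3 and lipl-7 lie to its left, except lipl-5 with the length trend removed, at -0.015.

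Members lay on both sides of the median gene, which splits all tested genes evenly, so such a split is no trait of the family. The changes of lipl-6, lipl-4, lipl-1 and lipl-2 exceeded the median of all tested genes under each of these scalings, and those of lipl-5, lipl-3 and lipl-7 were below it, apart from lipl-5 with the length trend removed (-0.015 against a median of -0.076). The family's own median log2 change was 0.65 over its 7 tested members. The distribution of all tested genes had a peak on either side of 0, and the 3 members with the smallest changes fell in the dip between the peaks.

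**Figure D3:**
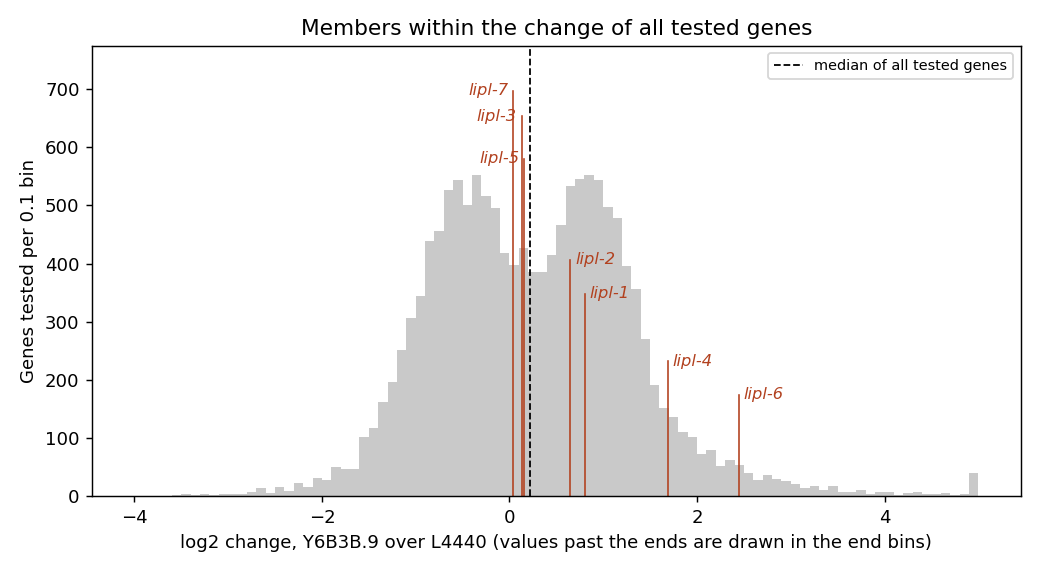
Number of tested genes (vertical axis) by log2 change (horizontal axis, bins of 0.1), with the 7 tested members as red lines whose heights have no meaning. lipl-7, lipl-3 and lipl-5 lie just left of the dashed median at 0.22, lipl-2 and lipl-1 lie in the right-hand peak, and lipl-4 and lipl-6, at 1.69 and 2.45, lie in the right-hand tail.

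Ratios between members within a library do not depend on the factor that scales each library. Removing the length trend, which acts gene by gene, would still shift them. Of the 21 pairs among the 7 tested members, 14 had ratios that did not overlap between the labels. They include 10 of the 12 pairs that set lipl-1, lipl-2, lipl-4 or lipl-6 against lipl-3, lipl-5 or lipl-7, in each of which the former was relatively higher under Y6B3B.9. The exceptions were lipl-1 and lipl-2 against the few reads of lipl-3. Because lipl-1, lipl-2, lipl-4 and lipl-6 were set apart by their rise in these same libraries, the direction of those pairs follows from that choice. Of these, lipl-6 passed the filter on low counts only through its Y6B3B.9 libraries. Of the 6 pairs within lipl-1, lipl-2, lipl-4 and lipl-6, 4 separated as well. None of the 3 pairs within lipl-3, lipl-5 and lipl-7 did. The share of such pairs among all tested genes was not computed, so these counts describe the members only. The log2 ratio of lipl-1 to lipl-7 counts was 0.26, 0.13 and 0.22 under the label Y6B3B.9 and -0.41, -0.69 and -0.61 under L4440. lipl-1 thus had more reads than lipl-7 in each of the former libraries and fewer in each of the latter. The log2 ratio of lipl-1 to lipl-5 was -4.24, -4.40 and -4.39 against -4.96, -5.12 and -4.90, a difference of 0.65 between the group means with no overlap. The ratio of lipl-1 to lipl-2 moved far less, from a mean of 0.29 ± 0.061 to 0.45 ± 0.035 (SD, n = 3 each), also with no overlap. The mean log2 ratio under Y6B3B.9 minus that under L4440 was -1.07 for lipl-2 to lipl-4, -1.78 for lipl-1 to lipl-6 and -1.93 for lipl-2 to lipl-6. The ratio of lipl-5 to lipl-7 overlapped between the groups, at 4.54 ± 0.053 and 4.43 ± 0.13 (SD, n = 3 each), as did that of lipl-4 to lipl-6, at 1.599 ± 0.25 and 2.47 ± 0.55 (SD, n = 3 each). An exact permutation test of 3 against 3 libraries cannot give a p under 0.1, so these ratios are given without one.

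Levels of different genes were compared as CPM per kilobase of the length used in the authors' counting. Under the label L4440 the order was lipl-5 (263 ± 11.7), lipl-7 (14.9 ± 0.734), lipl-1 (10.1 ± 0.661), lipl-2 (7.68 ± 0.758), lipl-4 (0.582 ± 0.192), lipl-3 (0.324 ± 0.158), lipl-6 (0.0816 ± 0.0384) and lipl-8 (0.0522 ± 0.0499), each a mean level in CPM per kilobase with its SD over 3 libraries. The ranges of lipl-4 and lipl-3 overlapped there, and so did those of lipl-6 and lipl-8. Under the label Y6B3B.9, lipl-1 at 17.7 ± 1.298 passed lipl-7 at 15.3 ± 0.439 CPM per kilobase, and lipl-6 at 0.447 ± 0.0221 passed lipl-3 at 0.347 ± 0.0569 (SD, n = 3 each). No neighbours in that order overlapped. Exon lengths from the annotation gave the same order in both groups. By this measure lipl-5 stood above 97.4% of all tested genes, lipl-1, lipl-2 and lipl-7 near the middle, and lipl-6 above only 2.17%.

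The summed level of the family was 340 ± 13.7 CPM per kilobase under the label Y6B3B.9 and 297 ± 11.7 under L4440 (SD, n = 3 each), a ratio of 1.15. lipl-5 made up 85.5%, 86.2% and 86.2% of the sum in the former and 88.7%, 89.1% and 88.0% in the latter. Without lipl-5 the sums were 49.5, 45.0 and 48.7 CPM per kilobase against 34.6, 32.5 and 34.0, a ratio of 1.416. In that remainder the share of lipl-7 was 32.0% on average under Y6B3B.9 and 44.2% under L4440, while lipl-1 held 37.0% and 29.9%. lipl-4 and lipl-6 changed most but held only 3.95% and 0.937% of the remainder under Y6B3B.9. All these sums were made with TMM scaling only, and the ratio of 1.15 depends on that choice. The log2 change of lipl-5, most of the sum, was 0.0027 with the size factors of DESeq2 and 0.44 with library totals.

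**Figure D4:**
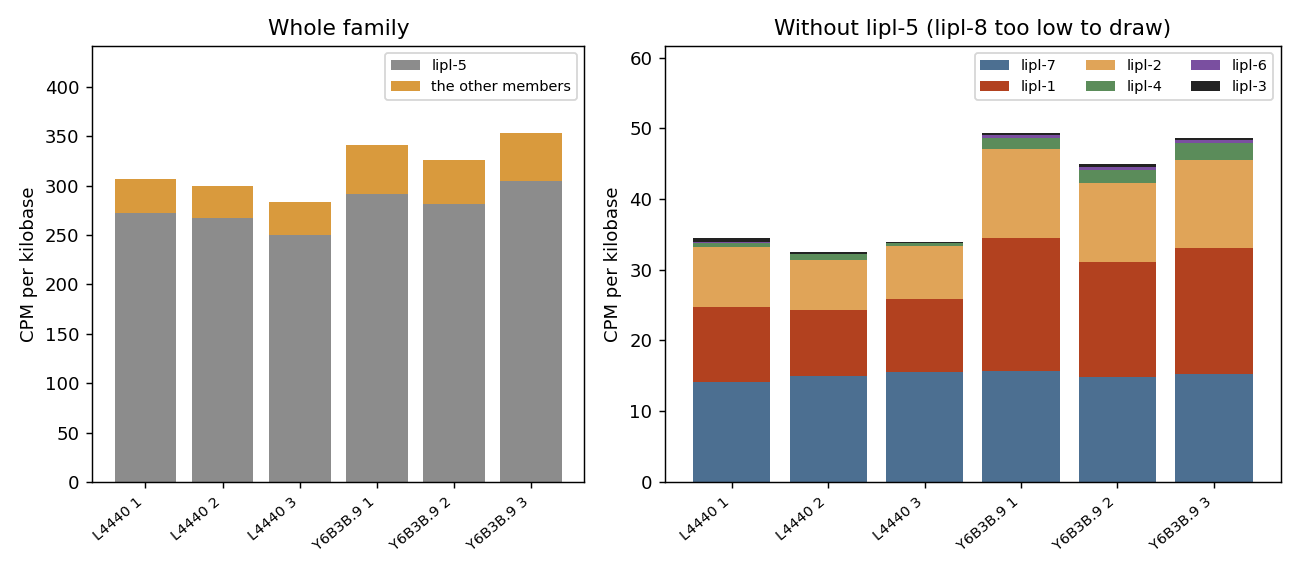
Stacked levels of the family in CPM per kilobase (vertical axes, from 0) in each library. On the left lipl-5 (grey) makes up between 85.5% and 89.1% of every bar, and on the right, without lipl-5, the bars of the 3 libraries labelled Y6B3B.9 are higher, mostly in the parts of lipl-1 and lipl-2.

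All 15 genes on a list of regulators of lysosomal lipase genes and fasting were tested, and 7 rose and 8 fell, with a median log2 change of -0.49. That is 46.7% higher and 53.3% lower, against 46.4% and 37.7% of all tested genes. Shares of the lists that follow are read against the same background, and lists of this size on so broad a background describe only their own genes. The repressor gene mxl-3 rose by log2 1.33 (SE 0.096), from 6.45 to 16.2 CPM, and the activator gene hlh-30 by 0.33 (SE 0.056), from 41.8 to 52.5 CPM. Both genes were thus higher in the same libraries, the repressor by more. xpo-1, the nuclear exporter known to keep HLH-30 out of the nucleus, fell with a log2 change of -1.58 (SE 0.086). tcer-1 fell as well, with a log2 change of -1.28 (SE 0.056), and so did daf-16 (-0.49, SE 0.051), the transcription factor of insulin signalling. let-363, which encodes TOR kinase, had a log2 change of -1.17 (SE 0.073). kri-1 (1.18) and the steroid receptor gene daf-12 (0.81) rose, and nhr-13 fell (-1.33, SE 0.084). These calls are all past an edgeR adjusted p of 0.05.

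Among genes of lysosome to nucleus lipid signalling, 4 of 6 rose (66.7%) and 1 fell, with a median of 0.73. With library totals all 6 were called higher. nhr-80 rose by log2 1.097 (SE 0.090), from 6.43 to 13.8 CPM. lbp-3, a lipid-binding protein secreted from the gut, rose by 0.62 (SE 0.065). The neuropeptide gene nlp-11 and its processing enzyme gene egl-21, both known to act downstream of LBP-3, rose by 0.91 (SE 0.14) and 0.84 (SE 0.067). lbp-8 was at 8.22 and 7.16 CPM and was not called (log2 change 0.21, SE 0.13, edgeR adjusted p = 0.139). It was called higher with library totals (0.50, adjusted p = 0.00236) and lower with the length trend removed (-0.35, adjusted p = 0.0217). nhr-49 fell by 0.15 on the log2 scale (SE 0.049, adjusted p = 0.0124 in edgeR), but was called higher with library totals (0.14, adjusted p = 0.0217).

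Of 35 genes of lysosome membrane proteins and hydrolases, 15 rose (42.9%) and 11 fell (31.4%), near the 46.4% and 37.7% of all tested genes. Their median log2 change of 0.11 came to -0.039 with the size factors of DESeq2. With library totals 22 rose and 4 fell. The aspartyl protease gene asp-4 rose by 0.83 (SE 0.056), from 868 to 1545 CPM. The cathepsin L gene cpl-1 rose by 0.49 (SE 0.056) and gba-1, a glucosylceramidase gene, by 0.82 (SE 0.063). vps-18 (-1.09, SE 0.053) and the channel gene cup-5 (-0.74, SE 0.047), which act in delivery to lysosomes and in their formation, fell. lmp-1, encoding a lysosomal membrane protein, fell by 0.28 on the log2 scale but was at 0.012 with library totals. Of 10 genes for gut granules, the lysosome-related organelles of the intestine, 3 rose and 6 fell, among them glo-1 (1.46, SE 0.10) and glo-2 (-1.31, SE 0.14), and with library totals 4 rose and 4 fell.

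Of 17 genes of lipid droplets and cytosolic fat breakdown, 7 rose (41.2%) and 10 fell (58.8%), with a median log2 change of -0.32. The neutral lipase genes atgl-1 (log2 change -0.81, SE 0.047) and hosl-1 (-1.07, SE 0.077) both fell. seip-1, encoding seipin, fell too (-1.29, SE 0.056), whereas dgat-2, for an enzyme of triglyceride synthesis, rose by 1.69 (SE 0.10). The fasting-induced lipase genes fil-1 (0.89, SE 0.19) and fil-2 (0.67, SE 0.24) rose, but fil-2 was not called with the size factors of DESeq2 (0.52, adjusted p = 0.0566 in edgeR) or with the length trend removed (0.26, adjusted p = 0.327).

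Of 17 lips genes, a separate family of predicted lipases, 14 were matched by name and 7 were tested. Here 6 rose and 1 fell, with a median of 0.86. With the size factors of DESeq2 5 rose, and with the length trend removed 4. lips-11 rose by log2 1.56 (SE 0.16), from 24.2 to 71.5 CPM, lips-10 by 1.122 (SE 0.090) and lips-3 by 1.296 (SE 0.21), and lips-1 fell (-1.25, SE 0.28). Of 20 genes of fatty acid oxidation, 10 rose and 9 fell. The peroxisomal genes daf-22 (1.01, SE 0.061), dhs-28 (0.96, SE 0.048) and maoc-1 (0.90, SE 0.051) were higher. The mitochondrial thiolase gene kat-1 (-1.29, SE 0.048), the carnitine palmitoyltransferase gene cpt-2 (-0.76, SE 0.053) and acs-2 (-0.72, SE 0.14), an acyl-CoA synthetase gene known to be induced by fasting, were lower. Related genes did not move as one. Of the other cpt genes, cpt-3 (1.14), cpt-4 (0.58) and cpt-5 (0.72) were higher, and cpt-1 (-0.36) and cpt-6 (-1.34) lower. Of the acox and prx genes, acox-1.1 (0.71) and prx-5 (0.80) were higher, acox-1.2 (-0.55) and prx-10 (-0.42) lower, and acox-1.3 was not called.

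Markers of several tissues differed between the same libraries. Of 12 intestinal markers, 10 rose and 1 fell, with a median log2 change of 1.05, and their summed level was 3334 to 3692 CPM under the label Y6B3B.9 and 1911 to 1987 CPM under L4440. The gut transcription factor gene elt-2, which the list of regulators also holds, rose by log2 1.14, ges-1 by 1.19 and ifb-2 by 1.23, and pept-1 fell (-0.62). All 10 germline markers fell, with a median of -1.26, and their sum was 4838 to 4959 CPM against 11120 to 11610 CPM. All 8 epidermal markers rose (median 2.45, sum 120 to 124 CPM against 47.5 to 54.5 CPM). Body muscle (4 higher and 1 lower of 8), neurons (5 and 2 of 8), coelomocytes (2 and 0 of 3) and pharynx (5 and 0 of 5 tested) had medians between 0.31 and 0.60. In the same order, their sums were 1202 to 1338 against 815 to 1032 CPM, 312 to 336 against 269 to 283 CPM, 13.4 to 17.1 against 11.3 to 11.8 CPM and 64.1 to 69.2 against 38.8 to 44.8 CPM. No marker of any list was at 0 reads over the 6 libraries.

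Set against the geometric mean of the 12 intestinal markers in the same library, the lipases differed. The log2 ratio of lipl-1 to this mean was -1.70, -2.03 and -1.90 under the label Y6B3B.9 and -1.84, -1.98 and -1.84 under L4440, so it overlapped, as did that of lipl-2. The ratio was higher under Y6B3B.9 for lipl-4, by 0.93, and for lipl-6, by 1.79, with no overlap. These are the 2 members with the largest rise in the same libraries, so their direction here follows from that rise. lipl-6 passed the filter on low counts only through its Y6B3B.9 libraries and had 5, 4 and 2 reads under L4440. It was lower for lipl-5, at 2.54, 2.38 and 2.49 against 3.13, 3.15 and 3.06, and for lipl-7, with a difference of -0.76, again with no overlap. For lipl-3 it overlapped. The direction depends on the reference. The log2 mean of the intestinal markers itself differed by 0.796 and that of the germline markers by -1.2, and this enters every such ratio. Set against the geometric mean of the 10 germline markers, all 7 tested members were higher under Y6B3B.9 with no overlap. The differences were 1.24 for lipl-7, 1.35 for lipl-5, 2.01 for lipl-1 and 3.79 for lipl-6. A member with a flat level, such as lipl-7, is higher by this reference because the germline markers fell. The share of all tested genes without overlap against either reference was not computed, so these ratios describe the members only. The part of the amount of intestinal, epidermal or germline RNA in the changes of the lipases was not tested.

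**Figure D5:**
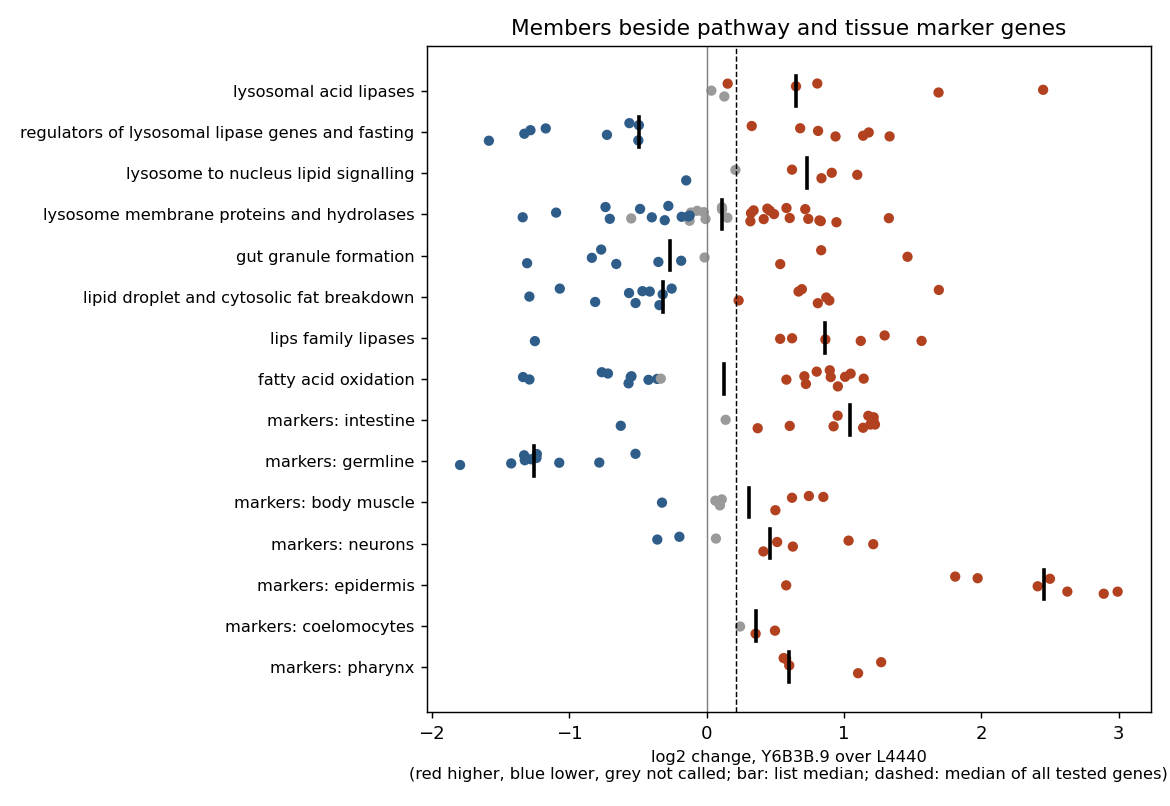
The log2 change (horizontal axis, Y6B3B.9 over L4440) of each tested gene of the lipase family, the 7 pathway lists and the 7 tissue marker lists, one point a gene, in red where called higher, blue where called lower and grey where not called, with black bars at list medians and a dashed line at the median of all tested genes. The lipases have a median of 0.65 with 3 of their 7 points left of the dashed line, intestinal markers a median of 1.05 and germline markers a median of -1.26.

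The genes whose pattern was most like that of lipl-6, the member with the largest rise, were sought among 8865 genes with at least 5 CPM on average and a read in every library. The measure was the root mean square difference of mean-centred log2 CPM over the 6 libraries, which all share the split between labels. Since lipl-6 was chosen for its rise, genes with a rise of like size are near it by construction. Its pattern under L4440 rests on 5, 4 and 2 reads. The nearest were the collagen gene col-73 (difference 0.35, from 1.35 to 9.42 CPM), bbs-4 (0.39, from 1.64 to 12.9 CPM), whose product belongs to a complex of cilia, and T02E9.5 (0.39, from 2.35 to 10.6 CPM). No member was called lower with TMM scaling, so none was sought for a fall.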

How the data were processed

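The submitters' processing notes name STAR 2.4.1d, build WBcel235, featureCounts 1.4.6-p4 and bcl2fastq 1.8.4. Their options, strand setting included, are not given there. For each of 6 libraries the authors deposited whole-number counts per gene, not normalized, and RPKM values. Groups came from the perturbation label. In the deposited RPKM, library totals were recycled along the table: for 4330 of 4330 genes with at least 1000 reads in each library, recycled totals gave 1 gene length within 0.1%, and own totals for 0. The counts were therefore tested, and gene lengths were taken from counts and RPKM. edgeR 4.0.16 in R 4.3.3 was used (filterByExpr, TMM, glmQLFit with robust=TRUE, glmQLFTest), and p-values of the 14265 genes that passed the filter were adjusted together by Benjamini-Hochberg and called at 0.05. SEs came from the F statistic. The test was checked on simulated data. Pairs of libraries of 1 group differed beyond sampling noise (chi-square per degree of freedom 3.92 to 15.5).

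Positions came from Ensembl release 115, of the same build. Alternatives were DESeq2 1.42.0 (size factors, Wald test), library totals, other filters, robust=FALSE, limma 3.58.1 (voom, and trend on log2 RPKM with pseudocounts of 0.1 or 1), leaving out each library, and removing a loess trend of change on gene length. The members, lists and alternatives were chosen with earlier results of these data known. Named are all members, overlapping genes, the genes most like the strongest riser, and list members, of which several were chosen after their values were seen. Reads carry no molecular identifiers.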

Additional observations from a re-analysis of the deposited data

How the results depend on the processing

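The calls of lipl-1, lipl-2 and lipl-4 held under all 17 alternatives, with log2 changes of 0.52 to 1.1, 0.41 to 0.94 and 0.94 to 1.98. That of lipl-6 held under the 16 that tested it, at 0.48 to 2.75. These 16 are not separate checks, since they reuse the same few reads of lipl-6, 11 under L4440. In the main test lipl-6 passed the filter on low counts only through its Y6B3B.9 libraries. It was also called with no filter (2.35), but a filter of 1 CPM in 3 libraries left it out. The lowest values of lipl-4 and lipl-6 came with log2(RPKM + 1), where the pseudocount is large beside their levels. lipl-5 was not called with DESeq2's size factors (0.00268), the DESeq2 Wald test (0.00267), no filter (0.0585) or deposited RPKM with a pseudocount of 0.1 (0.351) or 1 (0.350), and reversed with the length trend removed (-0.0148). lipl-7 was called with library totals (0.326) and RPKM with own totals (0.325), was -0.116 with DESeq2's size factors and in its Wald test and -0.0606 with no filter, and was called lower with the length trend removed (-0.252), which made 1 member lower in place of 0. lipl-3 was -0.0205 with DESeq2's size factors, -0.0385 in its Wald test and -0.143 with the length trend removed. The cause of these differences was not tested. lipl-8 was tested only with no filter (0.35, adjusted p = 0.759 in edgeR).

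Leaving out 1 library gave 11560 to 12050 called genes, 4 to 5 members higher and 0 lower. The log2 changes ran from 0.729 to 0.858 for lipl-1, 0.563 to 0.711 for lipl-2, -0.153 to 0.560 for lipl-3, 1.45 to 1.93 for lipl-4, 0.106 to 0.177 for lipl-5, 2.08 to 2.75 for lipl-6 and -0.0193 to 0.0571 for lipl-7.

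By scaling, body muscle markers were 7 higher and 0 lower with library totals and 6 and 0 with the length trend removed, neuronal markers 3 higher with DESeq2's size factors and 0 lower with library totals, coelomocyte markers 0 higher with DESeq2's size factors or the length trend removed, and droplet genes 6 lower and lipid signalling genes 6 higher and 0 lower with library totals. Annotated exon lengths put lipl-5 at 88.5% and 90.7% of the family. No paired analysis was possible because the labels give no replicate numbers, and the numbers used here only name libraries within a label and pair none.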
